A study of Mus musculus with 24 samples.

Results

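The 10 genes followed here belong to the transforming growth factor beta (TGF-beta) superfamily and were measured in dorsal root ganglia (DRGs) after sciatic nerve lesion. They are the TGF-beta ligands *Tgfb1*, *Tgfb2* and *Tgfb3*, the activin subunits *Inhba* and *Inhbb*, the bone morphogenetic protein (BMP) ligands *Bmp2*, *Bmp4* and *Bmp7*, and the receptors *Tgfbr2* and *Acvr1*. They were chosen by gene name, and all of their array probes were used, which gave 14 probes for 10 of the 27398 gene names on the array. L4 and L5 DRGs of adult male C57BL/6J mice were measured on Agilent 4x44K arrays in 6 groups of 4 samples, 24 in all. WT mice were *Nfil3*+/+ littermates. *Nfil3* KO mice carried *Nfil3*-/- in every tissue, since floxed mice had been crossed with mice expressing Cre from the CMV promoter. In both genotypes the left sciatic nerve was transected, the nerve ends were sutured together, and DRGs were taken at day 2 or day 5, with DRGs of the uninjured side as control. A control DRG therefore came from an animal that also carried a lesion, and the labels do not tie samples to animals, so that p-values measure only the spread between these samples.

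Ligands of this superfamily are secreted dimers that bind a type II receptor kinase, which activates a type I receptor kinase. The type I receptor then phosphorylates SMAD proteins, SMAD2 and SMAD3 for TGF-beta and activin and SMAD1, SMAD5 and SMAD9 for BMPs, and these enter the nucleus with SMAD4. *Inhba* and *Inhbb* encode the subunits whose dimers are activin A and activin B, *Tgfbr2* encodes the type II receptor for TGF-beta, and *Acvr1* encodes a type I receptor, also called ALK2, used by BMPs and activins. In peripheral nerve and DRGs the superfamily is known for roles in inflammation, in pain sensitivity and in the growth of injured axons. The study asked which genes of injured DRGs depend on NFIL3, a transcription factor that is itself induced by the lesion.

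Levels are log2 intensities after background correction and quantile normalization, and 1 unit is a doubling. A gene is described by its brightest probe, and levels of different probes were not compared. The brightest probe was well above background in all 24 samples for 8 of the genes, in 23 samples for *Bmp4* and in 2 samples for *Bmp2*. A probe of each of the 3 ligands that rose is shown, since its letters define which part of the message it measured. For *Inhbb* the dimmer probe is shown, not the one that describes the gene. Positions are in mm9, as in the array annotation, letters run 5′ to 3′, and the place of a probe in an exon or UTR was not analysed here.
Tgfb1 probe, chr7:26489877-26489936, plus strand: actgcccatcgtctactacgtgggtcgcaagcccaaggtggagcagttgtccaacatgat
Inhba probe, chr13:16118634-16118693, plus strand: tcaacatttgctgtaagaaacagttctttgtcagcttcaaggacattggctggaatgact
Inhbb dimmer probe, chr1:121314417-121314476, minus strand: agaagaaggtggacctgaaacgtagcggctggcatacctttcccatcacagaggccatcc
The brighter *Inhbb* probe lies at chr1:121312083-121312142, and the starts of the 2 probes are 2334 bases apart on the chromosome.

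The library labelled KO control replicate 4 also carries the label day 5, and its *Nfil3* level was 7.59 against 2.94 to 4.37 in the other KO controls, while WT controls had 8.44 to 9.03. *Sprr1a*, a gene strongly induced in injured sensory neurons, had 9.28 and 11.71 in WT control replicates 2 and 4 against 5.82 and 6.11 in the other WT controls. It had 8.15 and 11.43 in KO control replicates 1 and 4 against 5.66 and 5.48 in the other KO controls. Each of these 4 controls shared an array with a lesioned sample in the other channel, and the results that change without them are given below. Between 54.5% and 72.3% of all probes were well above background in a sample, with the lowest share in WT control replicate 4. This sample and its array partner, WT day 5 replicate 2, had 0.519% and 0.835% outlier spots. The other samples had 0.106% to 0.166%. In KO samples *Nfil3* was well above background in 1 of 4 controls, 2 of 4 at day 2 and 2 of 4 at day 5. The lesioned KO samples with this flag, day 2 replicates 1 and 4 and day 5 replicates 1 and 3, read 5.3 to 6.22. Each shared an array with a lesioned WT sample, at 10.34 to 10.98, and the other lesioned KO samples read 2.82 to 4.14. The array partner of KO control replicate 4, KO day 5 replicate 2, read 3.4. The source of the *Nfil3* signal in KO samples was not tested.

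The lesion was followed by changes in both directions within the superfamily. Averaged over the genotypes, 4 of the 10 genes rose at day 2 (*Tgfb1*, *Inhba*, *Inhbb* and *Acvr1*), where 9.39% of all genes rose, and 2 fell (*Tgfb2* and *Tgfb3*), where 12.9% of all genes fell. At day 5 again 4 rose (*Tgfb1*, *Inhbb*, *Acvr1* and *Tgfbr2*) against 10.2% of all genes, and 2 fell (*Tgfb2* and *Tgfb3*) against 13% of all genes. Shares were larger among genes well above background in every sample, as 8 of the 10 were. Of these 14.2% rose and 21.1% fell at day 2, and 15.4% rose and 21.9% fell at day 5. The 2 of 10 that fell are close to that share. The 3 BMP ligands did not pass the test at either day. Over both days together 7 of the 10 passed limma's F test for the lesion, where 26.3% of all genes passed. The median difference of the 10 genes was 0.25 at day 2 and 0.37 at day 5, beside -0.02 and -0.03 over all genes. A call here means a Benjamini-Hochberg adjusted p under 0.05 in limma, with adjustment over all probes. The comparisons at day 2 and day 5 share their control samples.

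**Figure D1:**
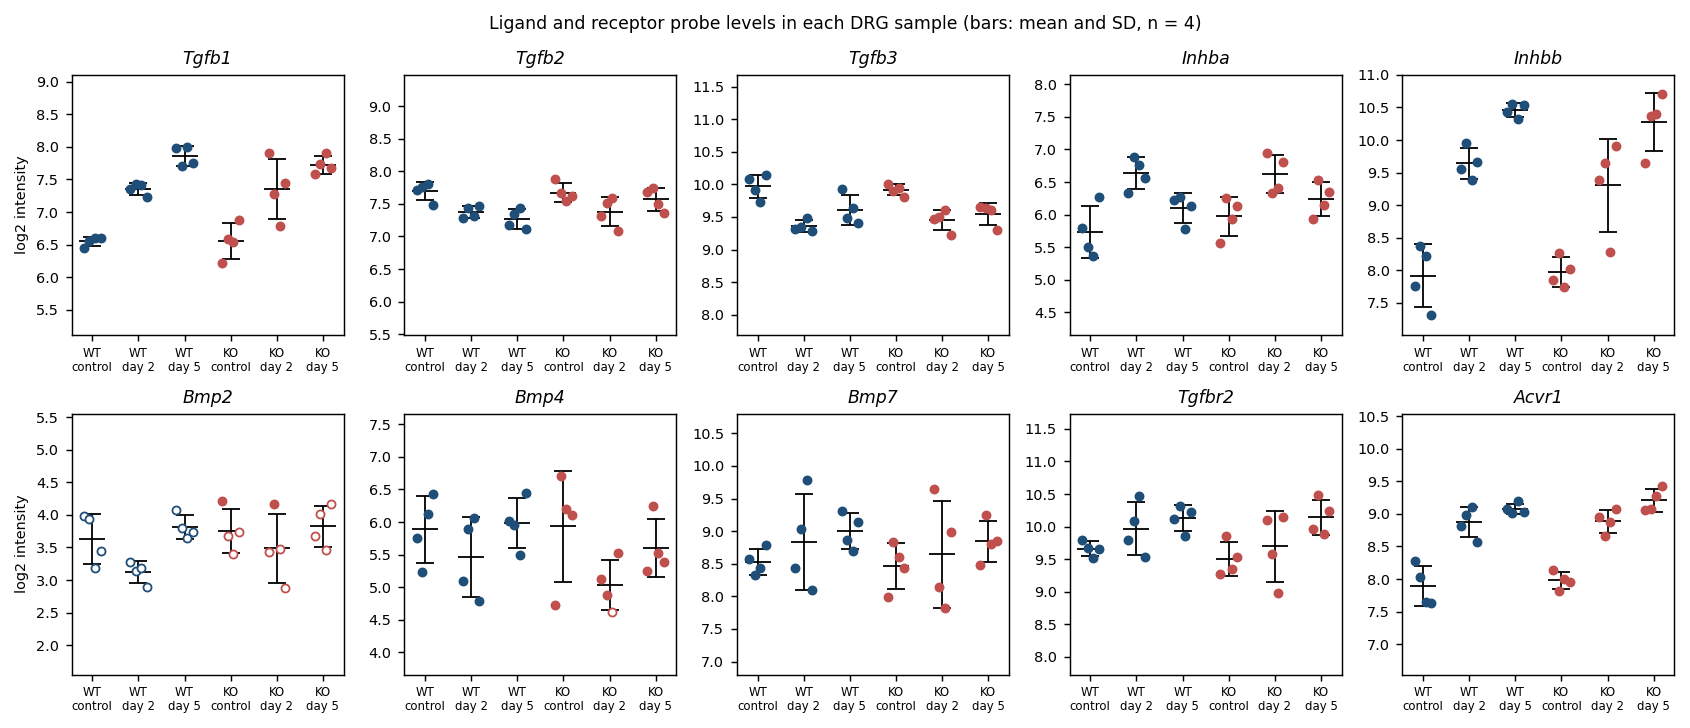
Log2 intensity of the brightest probe of each gene in the 24 samples, 4 per group, with WT in blue and *Nfil3* KO in red. Open points are not well above background, bars give the mean and SD, and each panel spans the same range of log2 units. *Inhbb*, *Tgfb1* and *Acvr1* lie higher at day 5 than in any control, while the *Bmp2* points are nearly all open.

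*Inhbb*, the activin B subunit, had the largest change of the 10 genes. In WT mice its log2 intensity was 7.76, 8.38, 8.22 and 7.31 in controls, 9.56, 9.96, 9.38 and 9.66 at day 2, and 10.43, 10.56, 10.33 and 10.53 at day 5. KO mice had 7.85, 8.27, 7.75 and 8.02 in controls, then 9.39, 9.64, 8.28 and 9.91 at day 2, then 9.64, 10.37, 10.40 and 10.70 at day 5. The control and day 5 samples did not overlap, and at day 2 only KO replicate 3 lay within the range of the controls. Averaged over genotypes the rise was 1.53 ± 0.21 (SE; 95% interval 1.10 to 1.95, limma adjusted p = 1.6e-05) at day 2 and 2.42 ± 0.21 (1.99 to 2.85, adjusted p = 2.47e-08) at day 5, or 2.88-fold and 5.36-fold. *Inhbb* was the only one of the 10 genes for which day 5 differed from day 2 in limma, by 0.90 ± 0.21 (adjusted p = 0.0173), where 3.33% of all genes passed. An unadjusted p under 0.05 was found for 5 of the 10 in that comparison, and for 15% of all genes or 20.3% of those well above background in every sample.

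The other *Inhbb* probe, whose letters are shown above, gave a smaller change. It rose by 0.73 ± 0.14 (SE) at day 2 and 0.81 ± 0.14 at day 5 in limma (adjusted p = 0.000745 and 0.000237), and its difference between day 5 and day 2 was 0.07 ± 0.14 (adjusted p = 0.869). The direction of the lesion change is thus shared by the 2 probes, while the further rise from day 2 to day 5 was measured on the brighter probe only. With both probes averaged, the difference between the days did not pass the test.

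*Inhba*, the activin A subunit, rose at day 2. Its levels in WT mice were 5.80, 5.50, 5.36 and 6.27 in controls, 6.33, 6.89, 6.76 and 6.56 at day 2, and 6.23, 6.27, 5.78 and 6.13 at day 5. In KO mice they were 5.57, 6.25, 5.93 and 6.14, then 6.94, 6.34, 6.41 and 6.81, then 5.93, 6.53, 6.15 and 6.35. All 8 day 2 samples lay above all 8 controls, whereas the day 5 samples overlapped with the controls. The day 2 rise was 0.78 ± 0.14 (SE; 95% interval 0.47 to 1.08, limma adjusted p = 0.000517), or 1.71-fold, and the day 5 difference was 0.32 ± 0.14 (0.01 to 0.62, adjusted p = 0.138). Without WT control replicate 4 the day 5 difference was 0.41 and passed (adjusted p = 0.0358). Day 5 minus day 2 was -0.46 ± 0.14 (SE; 95% interval -0.76 to -0.16, limma adjusted p = 0.0978) and did not pass. It passed under 2 of the 40 alternatives, without background correction (-0.31, adjusted p = 0.0224) and with normexp (-0.26, adjusted p = 0.0423), and its adjusted p was 0.0224 to 0.417 over all of them.

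*Tgfb1*, the TGF-beta ligand associated with immune cells and scarring, rose at both days. Its levels in WT mice were 6.45, 6.56, 6.60 and 6.60 in controls, 7.35, 7.43, 7.42 and 7.23 at day 2, and 7.99, 7.71, 8.0 and 7.76 at day 5. In KO mice they were 6.22, 6.58, 6.54 and 6.88, then 7.91, 7.27, 6.79 and 7.45, then 7.58, 7.73, 7.91 and 7.67. In WT mice the 3 groups did not overlap at all, and in KO mice day 2 replicate 3 fell within the control range and day 2 replicate 1 reached the top of the day 5 range. The rise was 0.80 ± 0.12 (SE; 95% interval 0.55 to 1.05, limma adjusted p = 5.38e-05) at day 2 and 1.24 ± 0.12 (0.99 to 1.49, adjusted p = 1.66e-07) at day 5, or 1.74-fold and 2.36-fold. Day 5 minus day 2 was 0.44 ± 0.12 and did not pass (adjusted p = 0.0512). Under 13 of the 40 alternatives it did, with adjusted p-values between 0.00332 and 0.116 over all of them.

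*Tgfb2* and *Tgfb3*, the other TGF-beta ligands, moved the opposite way. *Tgfb3* had 10.08, 9.92, 9.73 and 10.14 in WT controls, 9.31, 9.35, 9.49 and 9.29 at day 2, and 9.93, 9.49, 9.63 and 9.40 at day 5. In KO mice it had 10.01, 9.90, 9.94 and 9.81, then 9.47, 9.50, 9.60 and 9.23, then 9.65, 9.63, 9.60 and 9.30. The 8 day 2 samples all lay below the 8 controls, and at day 5 only WT replicate 1 lay within the control range. *Tgfb3* fell by 0.54 at day 2 (SE 0.08, limma adjusted p = 9.15e-05) and by 0.36 at day 5 (SE 0.08, adjusted p = 0.00303), or to 0.69 and 0.778 of the control intensity. Without the 4 controls that shared an array with a lesioned sample the day 5 difference was -0.33 (adjusted p = 0.0501).

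*Tgfb2* changed least of the genes that passed. Its levels in WT mice were 7.72, 7.76, 7.81 and 7.49 in controls, 7.28, 7.44, 7.31 and 7.47 at day 2, and 7.17, 7.35, 7.44 and 7.11 at day 5. In KO mice they were 7.88, 7.66, 7.54 and 7.62, then 7.32, 7.52, 7.59 and 7.09, then 7.69, 7.74, 7.5 and 7.36. WT lesioned samples all lay below the WT controls, whereas 2 of 4 KO day 5 samples lay within the KO control range. *Tgfb2* fell, averaged over genotypes, by 0.31 at day 2 (SE 0.08, limma adjusted p = 0.0124) and by 0.27 at day 5 (SE 0.08, adjusted p = 0.0274). The day 5 call was lost without any one of 7 samples, WT control replicate 2 or 3, WT day 5 replicate 1 or 4, KO control replicate 1, or KO day 5 replicate 3 or 4, with differences of -0.26 to -0.23 and adjusted p-values of 0.0527 to 0.0664. Without the 4 controls named above both calls were lost (adjusted p = 0.065 at day 2 and 0.111 at day 5).

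The BMP ligands did not pass the test at either day, with 2 of the 3, *Bmp2* and *Bmp4*, at an unadjusted p under 0.05 at day 2, as were 32.4% of all genes, and 0 at day 5. *Bmp4*, a ligand with known roles in axon growth and glial development, ranged from 4.72 to 6.70 in the 8 controls and from 4.62 to 6.06 at day 2. The groups overlapped widely, and the differences in limma were -0.66 ± 0.27 (SE; adjusted p = 0.088) at day 2 and -0.12 ± 0.27 (adjusted p = 0.827) at day 5. Without KO control replicate 1, which had the lowest control value, the day 2 difference was -0.87 and passed (adjusted p = 0.0114). It also passed with the slide as a block, at -0.74 (adjusted p = 0.0331), and without the 4 controls that shared an array with a lesioned sample, at -0.95 (adjusted p = 0.0232).

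*Bmp7*, a BMP ligand known for roles in neural and kidney development, was spread widest at day 2. The WT samples had 8.43, 9.04, 9.78 and 8.09 there, while KO samples had 9.64, 8.15, 7.82 and 8.98, so that the highest and the lowest of its 24 values were both day 2 samples. Controls lay between 7.99 and 8.83, and day 5 samples between 8.48 and 9.31. The differences were 0.24 ± 0.25 (SE; 95% interval -0.27 to 0.76, limma adjusted p = 0.556) at day 2 and 0.43 ± 0.25 (-0.09 to 0.94, adjusted p = 0.268) at day 5. Its second probe gave 0.23 ± 0.27 and 0.36 ± 0.27 (adjusted p = 0.613 and 0.425). Schwann cell and fibroblast markers were also spread at day 2. The Schwann cell markers had a log2 summed intensity of 16.47 to 17.58 in WT and 16.07 to 16.92 in KO mice. WT day 2 replicate 3 had both the highest *Bmp7* value and the highest Schwann cell sum of all samples. KO day 2 replicate 3 had the lowest *Bmp7* value with a sum of 16.07. KO day 2 replicate 2 had the same sum, and lower sums were 15.92 in KO control replicate 1 and 15.97 in WT day 5 replicate 3. The fibroblast marker sums at day 2 were 15.31, 16.0, 16.29 and 14.92 in WT, in the same order as *Bmp7*. KO samples had 15.76, 14.66, 15.06 and 16.01, in another order. The Schwann cell and macrophage sums of the WT day 2 samples had the *Bmp7* order as well. In KO day 2 samples both sums were highest in replicate 4, but *Bmp7* in replicate 1. The *Bmp7* difference at day 2 was -0.08 without the 4 samples with high muscle markers named below. The part of any of these cells in the *Bmp7* level was not tested.

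*Bmp2* was well above background only in KO control replicate 1 and KO day 2 replicate 2, at 4.22 and 4.16. Its values in the other samples, 2.88 to 4.16, were not well above background, and no fold is given. The unadjusted p was under 0.05 at day 2 (difference -0.39 ± 0.17 SE, limma adjusted p = 0.109), in a group where 7 of 8 values were not well above background.

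Both receptors rose, *Acvr1* at each day and *Tgfbr2* at day 5. *Acvr1* had 8.27, 8.03, 7.65 and 7.64 in WT controls, 8.82, 8.99, 9.10 and 8.57 at day 2, and 9.08, 9.01, 9.19 and 9.03 at day 5. In KO mice it had 8.14, 7.82, 8.0 and 7.96, then 8.95, 8.66, 8.87 and 9.08, then 9.06, 9.07, 9.27 and 9.43. Every lesioned sample lay above every control. The rise of *Acvr1*, measured at chr2:58299596-58299655 (mm9), was 0.94 ± 0.10 (SE; 95% interval 0.73 to 1.15, limma adjusted p = 9.45e-07) at day 2 and 1.20 ± 0.10 (0.99 to 1.41, adjusted p = 2.14e-08) at day 5, or 1.92-fold and 2.30-fold.

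*Tgfbr2* had 9.80, 9.67, 9.52 and 9.65 in WT controls, 9.80, 10.08, 10.47 and 9.53 at day 2, and 10.12, 10.31, 9.86 and 10.23 at day 5. In KO mice it had 9.28, 9.86, 9.35 and 9.53, then 10.10, 9.58, 8.98 and 10.14, then 9.97, 10.48, 9.89 and 10.24. The day 5 samples of each genotype lay above its controls, and the day 2 samples spread from below to above them. The day 5 rise was 0.55 ± 0.16 (SE; 95% interval 0.22 to 0.89, limma adjusted p = 0.0158), or 1.47-fold, and the day 2 difference was 0.25 ± 0.16 (adjusted p = 0.312). The day 5 call was lost without the 4 controls that shared an array with a lesioned sample, at 0.51 (adjusted p = 0.146), and with the 3 probes of the gene averaged, at 0.34 (adjusted p = 0.232). The other 2 *Tgfbr2* probes were well above background in 12 and in 0 samples and did not pass the test at either day.

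Tested within each genotype, 5 of the 10 genes passed at day 2 in WT mice, where 11.2% of all genes passed, and 5 passed at day 2 in KO mice, where 11.9% did. They were *Tgfb1*, *Tgfb3*, *Inhba*, *Inhbb* and *Acvr1* in both. At day 5 *Tgfb1*, *Inhbb* and *Acvr1* passed in both genotypes, joined by *Tgfb2* in WT (13.9% of all genes passed) and by *Tgfb3* in KO mice (12.8%). *Tgfb3* differed by nearly the same amount in both genotypes at day 5, -0.35 in WT (limma adjusted p = 0.0562) and -0.37 in KO mice (adjusted p = 0.0486). The WT difference passed under 13 of the 40 alternatives and the KO difference under 19, of which 7 were among the 24 that left out 1 sample. The *Inhbb* rise at day 5 measured 2.54 ± 0.29 (SE) in WT against 2.30 ± 0.29 in KO mice, and the *Acvr1* rise 1.18 ± 0.14 against 1.23 ± 0.14. Without KO day 2 replicate 4, 3 genes passed in KO mice at day 2. Without the library labelled KO control replicate 4, 4 passed in KO mice at day 2 and 3 at day 5, while the 6 genes called at each day over both genotypes were the same. Without the 4 samples with high muscle markers named below, 1 gene passed in KO mice at day 2, *Acvr1*, where 2 KO day 2 samples remained, and the *Tgfb2* call at day 2 over both genotypes was lost (-0.22, adjusted p = 0.14).

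**Figure D2:**
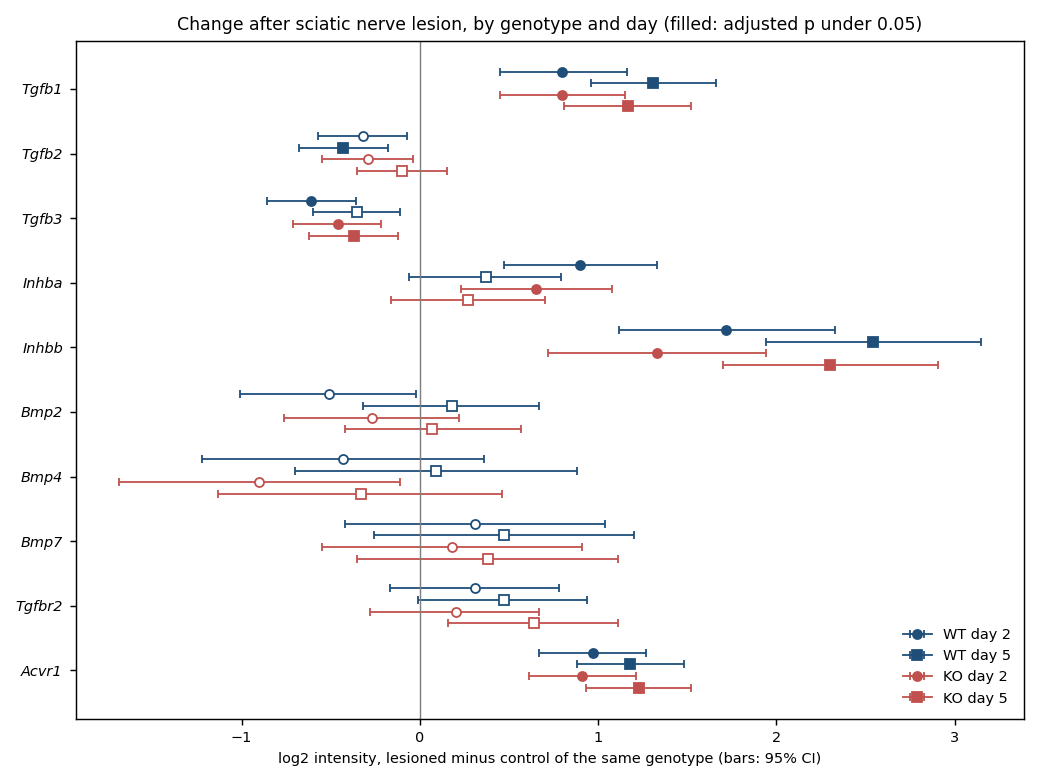
Change of each gene's brightest probe after lesion, as the log2 intensity of the lesioned group minus the control of the same genotype, with 95% confidence intervals from limma (n = 4 per group). Blue is WT and red is *Nfil3* KO, circles are day 2 and squares day 5, and filled symbols have an adjusted p under 0.05. The WT and KO intervals overlap for every gene at each day.

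No difference between KO and WT passed the test for any of the 10 genes. None passed in controls (0% of all genes), at day 2 (0.0146% of all genes) or at day 5 (0.0109%). None passed limma's F test for the interaction of genotype and time (0% of all genes). The study, which also used a time course test (SAM, statistical analysis of microarrays), did report genes whose lesion response differed between genotypes. At an unadjusted p under 0.05 there were 0, 0 and 1 of the 10 in the 3 comparisons, for which the share of all genes was not taken. In limma's F test over the 3 comparisons together there were 0, where 955 of all 41174 probes reached that level. The interaction test also had 0 of the 10, where 908 probes reached it. The 1 gene was *Tgfb2* at day 5, with a KO mean of 7.57 and a WT mean of 7.27, a difference of 0.31 ± 0.12 (SE; 95% interval 0.06 to 0.56, limma adjusted p = 1). Of its 4 KO samples 3 lay above all WT samples. Its lesion change at day 5 differed between genotypes by 0.33 (95% interval -0.03 to 0.68).

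The intervals show what size of genotype effect these samples could leave unseen. For *Inhbb* the change at day 5 in KO minus that in WT was -0.24, with a 95% interval from -1.10 to 0.62, and for *Tgfb1* it was -0.14, from -0.64 to 0.36. For *Acvr1* it was 0.05, from -0.37 to 0.47.

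Among 96 other genes of the pathway on the array, from a list of 97 that held ligands, receptors, SMADs, inhibitors and targets, 13 rose and 20 fell at day 2, and 18 rose and 20 fell at day 5. Their median difference was -0.01 at day 2 and 0.02 at day 5, beside -0.02 and -0.03 over all genes. As shares of the 96, 13.5% rose and 20.8% fell at day 2, and 18.8% rose and 20.8% fell at day 5. Of the 63 that were well above background in every sample 11.1% rose and 27% fell at day 2, and 17.5% rose and 28.6% fell at day 5. Among all 14555 such genes 14.2% rose and 21.1% fell at day 2, and 15.4% rose and 21.9% fell at day 5. Of the 25 other ligands 4 rose and 3 fell at each day. *Gdf9* rose by 0.87 ± 0.09 (SE) at day 5, and *Gdf1* and *Inha*, the inhibin alpha subunit that pairs with the products of *Inhba* or *Inhbb* in place of an activin dimer, differed by -0.87 ± 0.10 and -0.49 ± 0.08 (limma adjusted p at or under 0.000192 for these). *Gdf1* shares a transcript with a ceramide synthase gene, so its probe can also measure that message. *Gdf3* was counted among the ligands that rose at day 5 although its probe was not well above background in any sample.

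Of the 15 other receptors 1 rose and 2 fell at day 2, and 2 rose and 3 fell at day 5. *Tgfbr1*, the type I partner of *Tgfbr2*, rose by 0.61 ± 0.12 (SE) at day 5 (limma adjusted p = 0.000714), with a day 2 difference of 0.23. *Acvr1b*, also called ALK4 and a type I receptor for activin, differed by -0.47 at day 2 and -0.36 ± 0.09 at day 5, and *Amhr2* by -0.75 ± 0.12 at day 5. *Acvr1c*, also called ALK7 and a receptor for activin B among others, is named after its values were seen. The study lists the gene among those differentially regulated in *Nfil3* KO mice, whereas here no gene passed the interaction test. *Acvr1c* had a day 5 mean of 6.81 in WT and 7.17 in KO mice. It was not well above background in any control and was so in all 16 lesioned samples. Its level at day 5 was 7.15-fold that of controls in WT and 10.8-fold in KO mice. The limma adjusted p-values, 6.62e-08 in WT and 2.81e-08 in KO mice, belong to the differences of the measured values and not to these folds. For these folds each control array took the higher of the probe's own signal and the lowest signal of any probe well above background. This gave control means of 3.97 in WT and 3.73 in KO mice, the latter equal to the measured mean. The folds are therefore rough and set no lower bound. At day 2 the folds found in this way were 4.96 in WT and 5.73 in KO mice.

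The SMADs moved both ways. *Smad1*, a BMP effector, rose by 1.04 at day 2 and 1.23 ± 0.07 (SE) at day 5 (limma adjusted p = 1.49e-10), from 11.69 to 12.19 in all controls to 12.91 to 13.26 at day 5. *Smad4* rose by 0.28 ± 0.09 at day 5. *Smad9*, another BMP effector, and *Smad7*, an inhibitory SMAD, each differed by -0.70 at day 5 (adjusted p = 0.000492 and 0.00301). In all, 2 of 10 genes of this group rose and 4 fell at day 2, and 3 rose and 4 fell at day 5.

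The largest change of the whole list among genes measured in every sample was in an inhibitor. *Fst*, follistatin, which binds and neutralizes activins, had 5.79 to 7.16 in all controls, 8.47 to 9.98 at day 2 and 9.99 to 10.22 at day 5. It rose by 3.20 at day 2 and 3.82 ± 0.21 (SE) at day 5 (limma adjusted p = 3.27e-11), so that the message for the activin B subunit and that for an activin inhibitor were both higher at both days. *Bambi*, a pseudoreceptor, differed by -1.01 ± 0.10 and *Fstl1* by -0.75 ± 0.12 at day 5. Of 27 inhibitors and extracellular modulators measured, 4 rose and 8 fell at day 2, and 4 rose and 6 fell at day 5.

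Of 19 known targets of the pathway 2 rose and 3 fell at day 2, and 5 rose and 4 fell at day 5. *Id1* and *Id4*, of the Id family that BMP signalling induces in many cells, differed by -0.79 ± 0.15 and -1.07 ± 0.16 (SE) at day 5 (limma adjusted p = 0.000377 and 5.09e-05). For *Id1* the day 2 difference was -0.02. *Tgfbi* and *Klf10* rose by 0.75 ± 0.20 and 0.44 ± 0.09 at day 5 (adjusted p = 0.00863 and 0.00175).

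**Figure D3:**
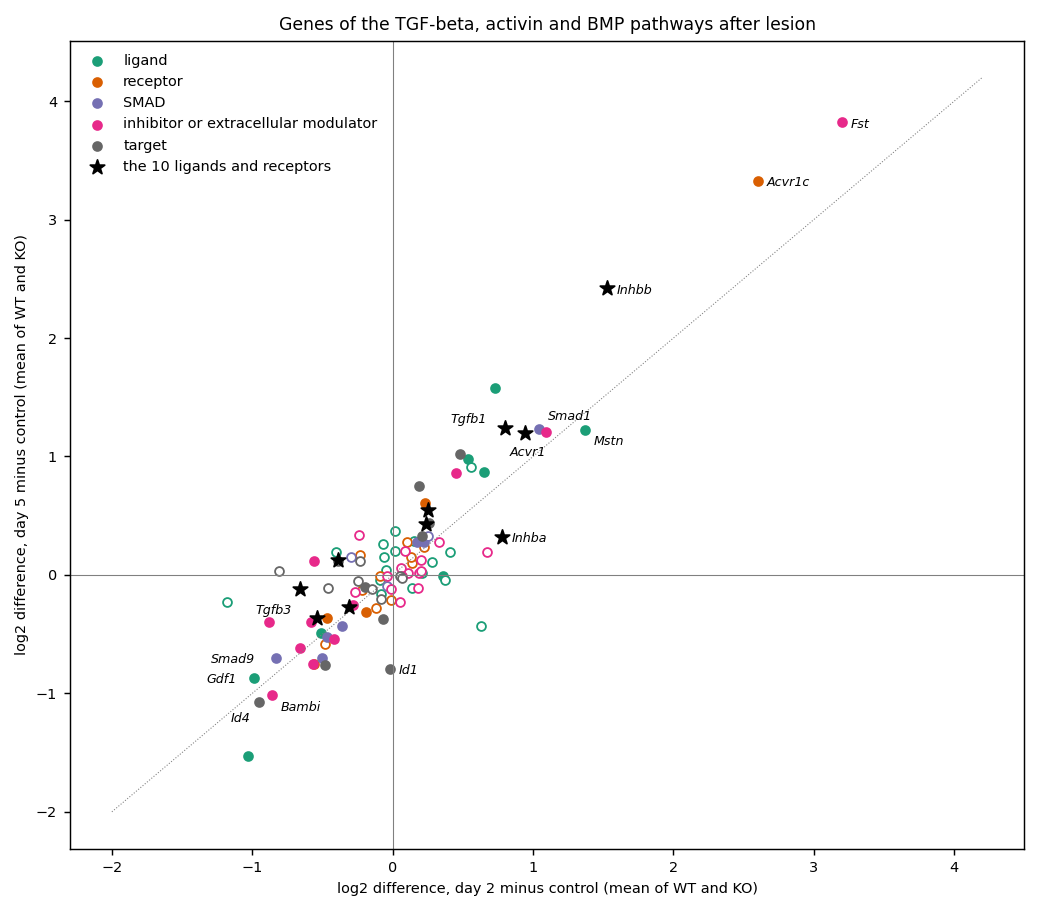
Log2 difference from control at day 5 against that at day 2, averaged over WT and *Nfil3* KO, for the 10 genes (stars) and 94 of the other genes of the pathway coloured by role. Filled circles passed at either day in limma, open circles at neither, and the dotted line marks equal change. *Fst*, *Acvr1c* and *Inhbb* lie farthest toward the upper right. *Acvr1c* was not well above background in controls, and its place shows measured values.

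These were whole ganglia, although the tissue label reads DRG neurons. All 12 neuron markers, 7 satellite glia markers, 7 Schwann cell markers and 10 macrophage markers were well above background in every sample. In bulk RNA, fewer cells of a type and less RNA per cell cannot be told apart. Of the neuron markers 8 fell at day 2, and 9 fell and 1 rose at day 5. Of the macrophage markers 5 rose at day 2 and 10 at day 5. Satellite glia markers were split (3 rose and 4 fell at day 2, 3 rose and 2 fell at day 5), and 2 Schwann cell markers rose at day 2 and 0 at day 5. Of 7 fibroblast markers 1 rose at day 5, of 7 endothelial and mural markers 1 rose at day 2 and 2 fell at day 5, and of 7 lymphocyte markers 1 rose at day 5. None of 4 neutrophil, 3 erythrocyte or 4 muscle markers passed the test at either day. The muscle markers were high in single samples, with a log2 summed intensity of 13.37 in KO day 5 replicate 1, 12.23 and 10.76 in KO day 2 replicates 4 and 1, and 10.88 in WT control replicate 1, against 6.93 to 8.98 in the other samples.

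Macrophage marker sums were highest at day 5, when *Tgfb1* and *Tgfbr2*, genes that macrophages also express, were raised together with *Inhbb* and *Acvr1*. The log2 summed intensity of macrophage markers was 11.19 to 12.09 in WT controls, 11.90 to 12.76 at day 2 and 13.36 to 13.54 at day 5. The KO sums were 11.22 to 11.96, 11.53 to 12.41 and 13.10 to 13.52 in the same order. The day 5 sums lay above all others in both genotypes, as did the day 5 levels of *Tgfb1* in WT mice. Among WT day 2 samples *Tgfbr2* had the same order as the macrophage, Schwann cell and fibroblast sums alike. Among KO day 2 samples *Tgfbr2* and these sums were all highest in replicate 4. *Tgfbr2* was lowest there in replicate 3, at 8.98, but the macrophage and fibroblast sums in replicate 2, at 11.53 and 14.66. The part of macrophages, or of these other cells, in the rises of *Tgfb1*, *Tgfbr2* and the other genes was not tested. The log2 sum of the neuron markers was 19.22 to 19.49 in all controls and 18.81 to 19.19 in all lesioned samples.

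**Figure D4:**
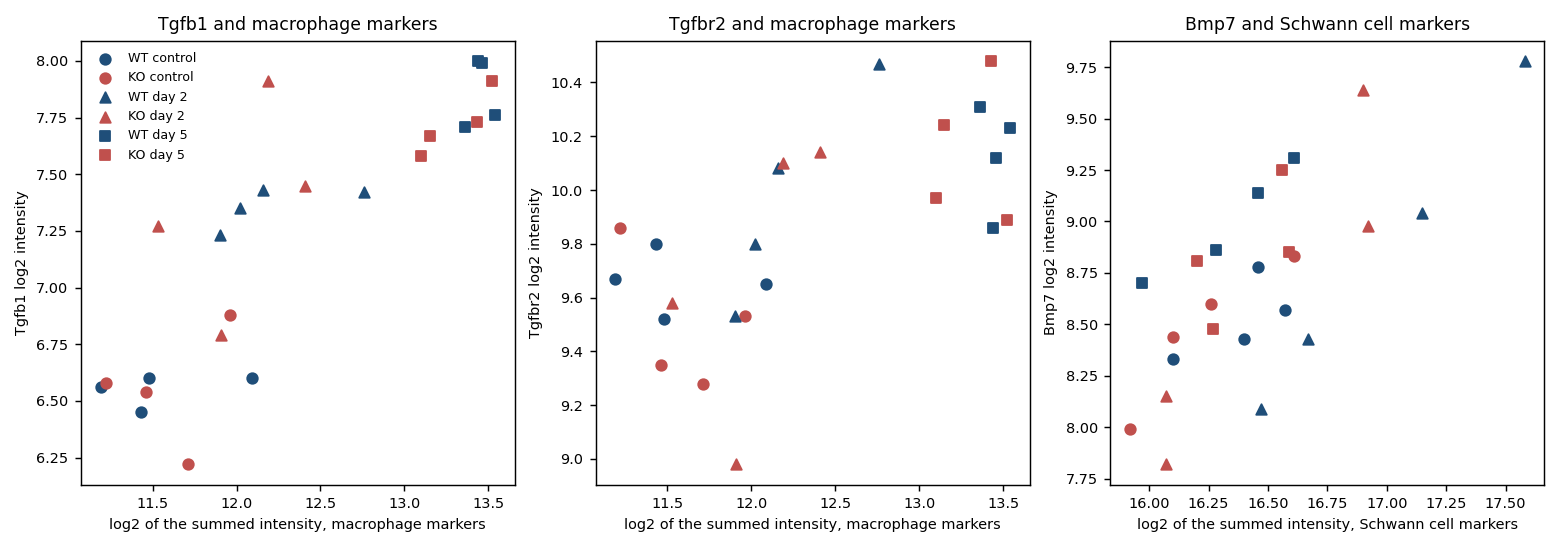
Log2 intensity of *Tgfb1* and *Tgfbr2* against the log2 summed intensity of 10 macrophage markers, and of *Bmp7* against that of 7 Schwann cell markers, in the 24 samples. Circles are controls, triangles day 2 and squares day 5, with WT in blue and *Nfil3* KO in red. The day 5 samples form a group of their own on the macrophage axis, at 13.10 and above.

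Slides and dyes were spread over the groups, and the changes were also taken within them. Within the 3 slides the day 5 difference from control was 2.33 to 2.61 for *Inhbb*, 0.98 to 1.47 for *Tgfb1*, 1.01 to 1.32 for *Acvr1*, 0.48 to 0.76 for *Tgfbr2*, -0.48 to -0.31 for *Tgfb3* and -0.43 to -0.14 for *Tgfb2*. The day 2 difference of *Inhba* was 0.65 to 0.83. At day 2 *Inhbb* spread more, from 0.49 to 1.87, and the lowest value came from a slide with 1 day 2 sample, KO replicate 3. Within the dyes the day 5 difference of *Inhbb* was 2.18 in Cy3 and 2.66 in Cy5 samples. That of *Acvr1* was 0.99 and 1.42.

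For the 3 genes with the largest day 5 changes, the genes with the most similar levels over the 24 samples were looked up among 14554 others well above background in every sample, as a description. *Inhbb* was followed most closely by *Tnik* (Pearson r = 0.97), *Cryba2* (0.965) and *Neto1* (0.962), which changed by 1.89, 2.47 and 2.09 at day 5. *Tgfb1* was followed by *Ang* (0.972), *Mad2l2* (0.97) and *2310022A10Rik* (0.97), with day 5 changes of 0.99, 1.17 and 0.61. *Acvr1* was followed by *Fam111a* (0.967), *Rhoq* (0.966) and *Tifa* (0.964), with 1.83, 2.1 and 1.60. The samples fall into lesioned and control groups. Thus r is high for genes with large lesion changes of the same direction and a similar time course.

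The 250 bases before the start of transcription are shown for *Inhbb*, which rose most, and for *Inhba*, the only one of the genes with the letters of an NFIL3 site there. They come from RefSeq on GRCm38.p6, not the build of the array, and 7 of the 10 genes had such a window. Capitals mark motif letters, a GC box in *Inhbb* and an NFIL3 site in *Inhba*.
Inhbb upstream window, chr1:119422249-119422498, minus strand: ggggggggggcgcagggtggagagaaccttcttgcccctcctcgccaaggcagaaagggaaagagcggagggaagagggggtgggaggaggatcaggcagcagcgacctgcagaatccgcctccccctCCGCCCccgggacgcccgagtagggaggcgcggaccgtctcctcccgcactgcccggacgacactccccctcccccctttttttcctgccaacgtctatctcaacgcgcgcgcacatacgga
Inhba upstream window, chr13:16011601-16011850, plus strand: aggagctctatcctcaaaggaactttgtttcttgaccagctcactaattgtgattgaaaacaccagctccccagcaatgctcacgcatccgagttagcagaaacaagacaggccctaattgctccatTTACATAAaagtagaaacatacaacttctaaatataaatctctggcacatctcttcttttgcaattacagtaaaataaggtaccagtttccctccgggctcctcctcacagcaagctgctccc
Searched on both strands were the NFIL3 site (TTACGTAA, TTATGTAA or TTACATAA), the AP-1 site (TGAGTCA or TGACTCA), the cAMP response element (TGACGTCA), the Smad-binding element (GTCTAGAC), a BMP response element (GGCGCC) and the GC box (GGGCGG or CCGCCC). Of 32851 windows of this length 0.931% held the NFIL3 letters, 4.46% AP-1, 1.55% the cAMP response element, 0.167% the Smad-binding element, 9.59% the BMP response element and 32.7% a GC box. The *Inhba* window held TTACATAA, starting 123 bases before the start. Its KO minus WT level was 0.24 ± 0.20 (SE) in controls, -0.01 ± 0.20 at day 2 and 0.14 ± 0.20 at day 5, and none of these passed in limma (adjusted p = 1). GC boxes were found in *Tgfb1* (5), *Acvr1* (6), *Inhbb* (1) and *Bmp4* (1), and no other motif was found in the 7 windows.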

How the data were processed

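L4 and L5 DRG RNA had been hybridized by the authors to 12 Agilent 4x44K arrays on 3 slides, with a different sample in each channel, which gives 24 samples in 6 groups of 4, with 2 samples per dye. Samples were grouped by title. The authors deposited Feature Extraction output, whose foreground and background intensity values per spot are not normalized, together with flags. Following the study's methods, Edwards background correction (mean foreground, median background) and quantile normalization over all channels were used. Control spots (1639 of 45018) and outlier spots were left out, repeated spots were averaged per probe, and the deposited intensities were turned into log2 values. This left 41174 probes, with 417 values missing. A probe counted as well above background in a sample if at least 50% of its spots carried that flag. No spot was saturated. The number of arrays limits the precision.

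Group means were fitted to all probes and samples with lmFit and eBayes of limma 3.58.1 (with statmod 1.5.0) in R 4.3.3, and p-values were adjusted over all probes by the Benjamini-Hochberg method with a threshold of 0.05. The brightest probe stood for a gene. The fit was tested on simulated data. No deposited column of values was left without a sample. The genes and lists were chosen with earlier results of these data known. The text names all 10 genes and, per role, the 2 highest and 2 lowest day 5 changes among other pathway genes that passed and were measured in every sample, with *Nfil3* and *Sprr1a* as checks. Genes this rule names but the text omits are not reported here. Other pathway genes came from 1 list with 5 roles, and cell types from 10 marker lists.

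Alternatives changed the background correction (none, or normexp with an offset of 50), the foreground (median), the normalization (loess with Aquantile, or processed signals set to the 75th percentile of each channel), and the spots (outliers kept). Others took only the 29805 probes that were well above background in 4 or more samples, averaged the probes of a gene, added dye, slide, replicate number or array partner to the model, treated the array as random, let the variance follow intensity, or left out each sample. Leaving out together the 4 controls that shared an array with a lesioned sample, or the 4 samples with a log2 muscle marker sum over 10, was added after seeing the data.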

Additional observations from a re-analysis of the deposited data

Results flagged for a closer look

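Among 84 groups of 4 values, from 14 probes and 6 groups, 2 held a sample set apart from the other 3, where chance alone sets apart about 5% of such groups. For *Tgfb3*, KO day 5 replicate 4 had 9.30 and the others 9.60 to 9.65, a gap of 0.857 of the range. For the *Tgfbr2* probe A_52_P251403, WT control replicate 4 had 7.0 and the others 4.37 to 4.49, a gap of 0.954 of the range. This sample shared its array with a day 5 sample, in which this probe read 6.85. The *Tgfbr2* probe A_52_P3811 lay below the control mean in all 4 WT samples at day 2 and above it in all 4 KO samples, and the change in KO minus that in WT was 1.40. It was not well above background in any sample, and the difference was chosen by this pattern and was not tested further.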

How the results depend on the processing

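Each of 40 alternatives was run on the counts of genes that passed and on the tests of the 10 genes, with 39 for *Bmp2*. The changes of single other pathway genes, the marker lists and sums, and the correlations were not rerun. The counts kept within 1.5 times of the values reported except the following. For day 5 minus day 2, where 1 of the 10 genes passed, 3 passed without background correction and with normexp, 0 with probes averaged, and 2 with loess, with outlier spots kept, with the filter on dim probes, with dye, slide, array or array partner in the model, and with an intensity trend. Leaving out 1 sample gave 1 to 2 in this comparison and 3 to 5 for KO mice at day 2. Without the 4 controls that shared an array, 3 genes passed at day 5 in place of 6. Without the 4 samples with high muscle markers, 1 passed in KO mice at day 2 in place of 5, and 2 for day 5 minus day 2. Direction was kept for each of the 10 genes at both days except *Tgfbr2* at day 2 with probes averaged (-0.13), *Bmp7* at day 2 without the samples with high muscle markers (-0.08) and *Bmp4* at day 5 without KO control replicate 2 (0.01, with -0.33 to 0.01 over all single samples left out), and none of these had passed. *Bmp2* at day 2 passed without KO day 2 replicate 2 (-0.50, adjusted p = 0.0229). *Tgfb1*, *Inhbb* and *Acvr1* passed at both days under all 40 alternatives. No KO minus WT or interaction call was made for the 10 genes under any alternative. The cause of these shifts was not tested.

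The labels do not say whether replicate numbers pair the samples. In every group replicates 1 and 2 were in Cy3 and replicates 3 and 4 in Cy5, so the number goes with the dye. Over 60 pairs with the same number the correlation of deviations from the group means was -0.58 to 0.59. Its mean was 0.05, against -0.02 for pairs with other numbers, and 8 of 24 samples correlated best with one of their own number. These values cannot settle whether the numbers pair samples. With the replicate block 6 genes passed at day 2, 6 at day 5 and 1 for day 5 minus day 2, and for WT day 5 there were 5 in place of 4. Samples on the same array were more alike, with a consensus correlation of 0.262.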
